A study of Mus musculus with 6 samples.

Results

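Cilp, Cilp2, Chad and Cytl1 code for secreted proteins of cartilage and fibrocartilage, the tissue through which a tendon is anchored in bone. They are 4 of 26130 genes in a table of RNA counts from sorted mouse skeletal stem cells, found by gene symbol, and all 4 were measured. They were chosen by their counts, which were lower in the injured libraries, so their difference between injured and other libraries is given as a description, with no test.

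The cells came from the Achilles tendon-to-bone interface of C57BL/6 mice and were isolated by fluorescence-activated cell sorting at post-injury day 7. The groups were cells from a partially injured interface (injured 1, 2 and 3), from an uninjured one (1 library) and from sham controls (sham 1 and 2). All were total RNA, made into cDNA from 150 pg with an ultra-low-input kit. The labels name no age, sort markers or number of animals behind a library, so p-values measure only the spread between these libraries, which may be technical. The uninjured library is called uninjured in its title and treatment label, but a sham in its description and in the name of its count column. It was kept apart, and in a further comparison joined to the sham libraries as 3 non-injured libraries.

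Cartilage intermediate layer protein (Cilp) is a matrix glycoprotein that, in human cartilage, is known to bind TGF-beta1 and to oppose IGF-1. Cilp2 is its paralog. Chondroadherin (Chad) is a leucine-rich repeat protein that binds collagen and the integrin alpha2beta1, through which chondrocytes attach to it. Cytokine-like 1 (Cytl1) is a small secreted protein of cartilage, first found in human CD34+ blood cells. Cilp is known from articular cartilage, intervertebral disc and tendon, and its level is known to respond to TGF-beta.

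The libraries held 37506188 to 51089267 counts. Ribosomal RNA made up 14.7% of injured 1 and 15.0% of sham 1, and 2.89% to 5.32% of each remaining library. These 2 libraries also held the most blood transcripts, so values without them are given beside the results. Of genes whose proteins are used to select these stem cells, Itgav stood at 31.1 to 116 CPM (counts scaled to a common library size) and Cd200 at 30.96 to 160.2 CPM over the 6 libraries. Of those selected against, Ptprc was at 0 in injured 3 and sham 2, and Eng reached 201.2 CPM in sham 1.

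The 4 genes lie on separate chromosomes in GENCODE M21 on GRCm38, one of the 2 builds named by the submitters. The labels do not say which of them served the counting. Cilp (chr9:65265180-65280605, + strand) has 10 exons and a transcript of 4153 bases, and Cilp2 (chr8:69880369-69887687, - strand) has 8 exons and 4314 bases. Chad (chr11:94565047-94569127, + strand) has 4 exons and 1680 bases, and Cytl1 (chr5:37735519-37739820, + strand) has 4 exons and 974 bases. Reads of the paralogs can be told apart. None of the 31-base words in the transcripts of any of the 4 genes occurred in a transcript of another gene (4251 distinct words for Cilp, 4284 for Cilp2). Chad lies wholly within Acsf2, an acyl-CoA synthetase gene on the opposite strand, and shares 0 exon bases with it. Acsf2 had 29 to 763 counts per library, against 9838 to 664706 for Chad.

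The stretch of 250 bases before the transcription start is shown for 3 of the genes, because the members are low together in the injured libraries. Sequences are from RefSeq on GRCm38.p6, read 5′ to 3′ on the gene's strand. Capitals mark TATAA on the gene's strand and CANNTG, the E-box letters bound by scleraxis and other basic helix-loop-helix factors. The windows are chr9:65264930-65265179 for Cilp, chr11:94564797-94565046 for Chad and chr5:37735269-37735518 for Cytl1.
Cilp: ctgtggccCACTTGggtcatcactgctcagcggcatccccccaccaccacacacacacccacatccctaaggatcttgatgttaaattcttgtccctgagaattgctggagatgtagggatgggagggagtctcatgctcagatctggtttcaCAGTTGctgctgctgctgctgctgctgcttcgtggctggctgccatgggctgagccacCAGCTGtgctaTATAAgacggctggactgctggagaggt
Chad: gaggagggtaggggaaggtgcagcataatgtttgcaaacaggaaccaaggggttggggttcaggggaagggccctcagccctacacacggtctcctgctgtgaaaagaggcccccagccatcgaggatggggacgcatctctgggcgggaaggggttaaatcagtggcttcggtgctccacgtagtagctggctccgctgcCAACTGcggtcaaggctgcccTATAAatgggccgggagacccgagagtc
Cytl1: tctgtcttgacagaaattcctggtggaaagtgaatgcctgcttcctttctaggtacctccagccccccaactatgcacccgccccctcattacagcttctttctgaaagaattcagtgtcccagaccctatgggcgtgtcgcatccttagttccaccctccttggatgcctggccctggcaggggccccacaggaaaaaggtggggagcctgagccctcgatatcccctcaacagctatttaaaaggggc
Cilp and Chad each held TATAA ending 23 bases before the start, which 4.23% of 32851 RefSeq windows hold within 40 bases of the start on the same strand. Cilp held 3 CANNTG matches and Chad 1, while Cytl1 held 0 of either motif, and 66.2% of all windows hold CANNTG on either strand. Only these letters were searched, so near matches to TATAA, in Cytl1 or elsewhere, were not counted. No motif of those searched was shared by all 3 printed windows. Searched on both strands were also ACAAT (27.7% of windows), CAGAC (42.2%), TGTGGT (14%), TGANTCA (6.75%) and GCGNGGGCG (4.7%), and the motifs were chosen after the sequences were seen. Cytl1 held CAGAC once and Cilp held TGTGGT once, on the opposite strand. The RefSeq window of Cilp2 falls within exon 1 of the GENCODE transcript and is not printed.

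Chad was the most abundant of the 4 genes. It stood at 223, 429 and 595 CPM in injured 1, 2 and 3, at 16181 CPM in the uninjured library, and at 4386 and 16868 CPM in sham 1 and 2. Every injured library was below every other library, by at least 7.38-fold between the nearest of them, sham 1 and injured 3. By raw count, Chad ranked 687, 226 and 165 among all genes in injured 1, 2 and 3, 5 in the uninjured library, and 19 and 9 in sham 1 and 2. The mean was 415 ± 186 CPM in injured cells (SD, n = 3) and 10627 ± 8826 CPM in sham controls (SD, n = 2), with a log2 fold change of -4.68 ± 0.87 (SE). The sham libraries differed 3.85-fold from each other, and without sham 2 the log2 fold change was -3.40, against -5.34 without sham 1.

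**Figure D1:**
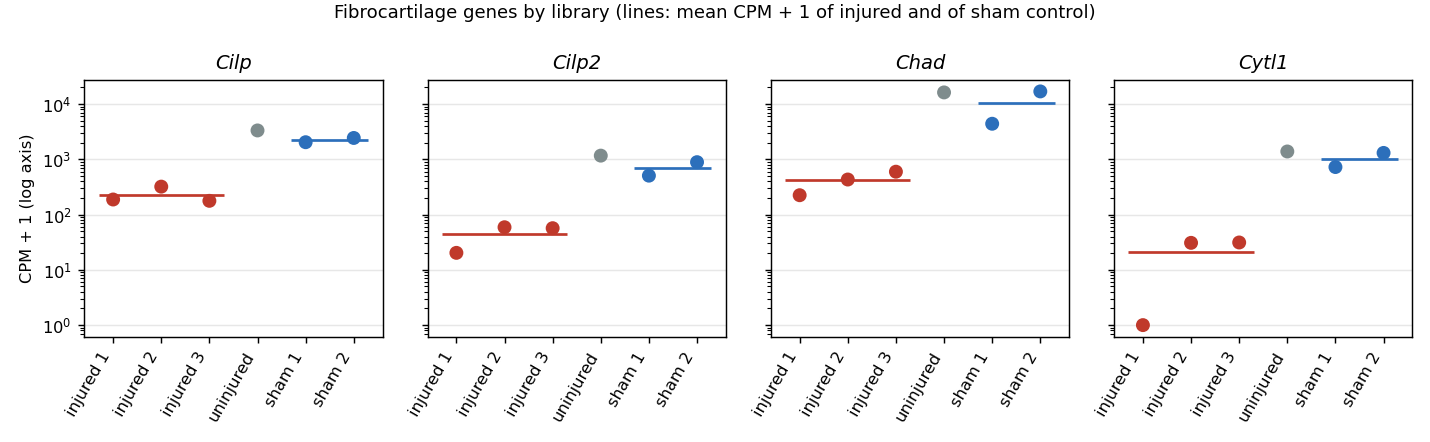
CPM + 1 of the 4 genes in each library, on a log axis, with injured libraries in red, the uninjured library in grey and sham controls in blue, and with lines at the means of injured and sham control. In each panel the 3 injured points lie below the other 3, and Cytl1 of injured 1 has no count.

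Cilp stood at 186, 319 and 176 CPM in injured 1, 2 and 3, at 3319 CPM in the uninjured library, and at 2033 and 2427 CPM in the sham libraries. The gap between the nearest libraries, sham 1 and injured 2, was 6.38-fold. Cilp varied little within groups, with a range of 1.81-fold among the injured and 1.63-fold among the 3 non-injured libraries. Its log2 fold change was -3.30 ± 0.50 (SE) against sham control and -3.52 ± 0.46 (SE) against all non-injured libraries, and leaving out any 1 library kept the first of these between -3.62 and -3.16.

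The paralog Cilp2 was the less abundant of the pair. It stood at 19.3, 57.9 and 55.7 CPM in injured 1, 2 and 3, at 1162 CPM in the uninjured library, and at 504 and 885 CPM in sham 1 and 2. The groups did not overlap, with an 8.71-fold gap between sham 1 and injured 2. The log2 fold change was -3.97 ± 0.61 (SE) against sham control and -4.27 ± 0.59 (SE) against all non-injured libraries.

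Cytl1 had no count in injured 1, where 3 counts would be 0.0679 CPM, and stood at 29.8 and 30.2 CPM in injured 2 and 3. It stood at 1382 CPM in the uninjured library and at 722 and 1301 CPM in sham 1 and 2. The gap between the nearest libraries, sham 1 and injured 3, was 23.9-fold, the widest of the 4 genes. The log2 fold change was -5.66 ± 1.96 (SE) against sham control. Its wide error goes with the library at 0: without injured 1 the value was -5.08 ± 0.60 (SE). The RNA input was small, and its part in this 0 was not tested.

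The injured values of all 4 genes lay wholly below both sham libraries and below all 3 non-injured libraries, which the choice of members fixes. Of all genes tested, 9.12% lay wholly below both sham libraries (11.9% above) and 7.07% below all 3 non-injured ones (9.23% above). RNA was pooled over cells, so fewer cells with a transcript and less of it per cell cannot be told apart.

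**Figure D2:**
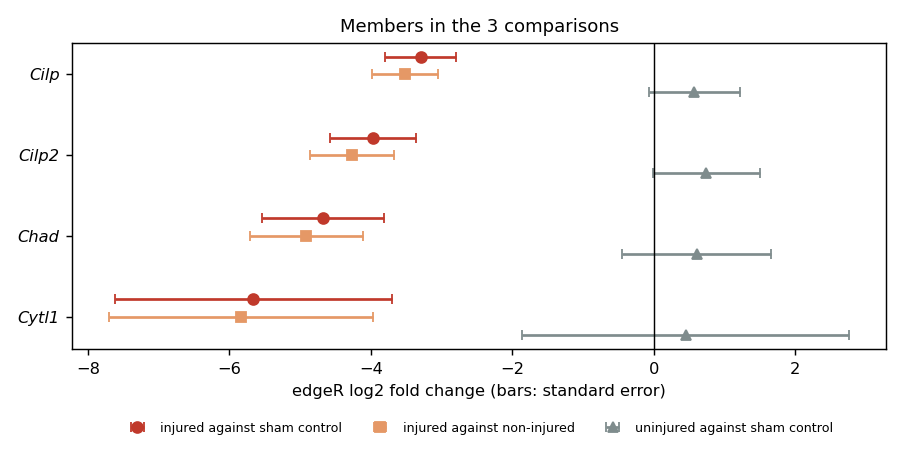
edgeR log2 fold changes of the 4 genes with standard errors, for injured over sham control, injured over all non-injured libraries, and uninjured over sham control. The first 2 lie between -3.30 and -5.83, and the third between 0.45 and 0.74 with errors from 0.64 to 2.31.

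The uninjured library was then set against the sham libraries, a difference that the choice of members did not use. Since its description and column name call it a sham, this may be a comparison among sham libraries. Log2 fold changes were 0.57 ± 0.64 for Cilp, 0.74 ± 0.76 for Cilp2, 0.61 ± 1.06 for Chad and 0.45 ± 2.31 for Cytl1 (SE, 1 library against 2). None passed edgeR's quasi-likelihood test, with adjusted p from 0.976 (Cilp2) to 1 (Chad and Cytl1). The lone library is assumed to vary like the other groups. Cilp, Cilp2 and Cytl1 were higher in it than in both sham libraries, as were 29.8% of genes tested (26.2% were lower than both), and Chad lay between the sham libraries. No gene passed in this comparison by edgeR (0% of 16752), while 1% had an unadjusted p under 0.05 and a higher level and 2.75% a lower one (168 and 461 genes). DESeq2 called 91 genes higher (0.581%) and 617 lower (3.94%), none of them a member, and limma-voom called 0. The errors leave room for differences between uninjured and sham cells of the size of the values themselves.

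Levels of the 4 genes were compared with each other per kilobase of transcript. Chad stood at 133, 255 and 354 CPM per kilobase in injured 1, 2 and 3, at 9632 in the uninjured library and at 2611 and 10040.5 in sham 1 and 2. In the uninjured and both sham libraries the order was Chad, Cytl1, Cilp and Cilp2. Cytl1 stood at 1418, 741 and 1336 CPM per kilobase in the uninjured library, sham 1 and sham 2, and Cilp at 799, 489 and 584. Cytl1 was thus above Cilp within each of these libraries, although the ranges of the genes over libraries overlapped. In injured 2 and 3 the order was Chad, Cilp, Cytl1 and Cilp2, with Cytl1 at 30.6 and 31.04 and Cilp at 76.8 and 42.4 CPM per kilobase.

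Ratios of counts within a library are free of scaling between libraries. Cilp2 over Cilp was 0.104, 0.182 and 0.316 in injured 1, 2 and 3, 0.350 in the uninjured library, and 0.248 and 0.365 in sham 1 and 2, so injured and sham values overlapped. Chad over Cilp, at 1.20, 1.35 and 3.38 in the injured libraries, also overlapped with 4.87 in the uninjured library and 2.16 and 6.95 in the sham libraries. Cytl1 over Cilp did not overlap: it was 0, 0.0934 and 0.172 in injured 1, 2 and 3, 0.416 in the uninjured library, and 0.355 and 0.536 in sham 1 and 2. Cytl1 was thus lower relative to Cilp in each injured library than in any other, a description with no test.

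Blood cell markers differed widely between libraries of the same group. Summed erythroid markers stood at 6077, 593 and 7.34 CPM in injured 1, 2 and 3, at 127 CPM in the uninjured library, and at 38765 and 1.19 CPM in sham 1 and 2. Of 7 erythroid genes 6 were in the table, and Slc4a1, the red cell anion exchanger, was at 0 in every library but sham 1. Neutrophil markers (8 genes) spanned 4.28 to 6286 CPM in injured libraries, 789.9 CPM in the uninjured and 23.0 to 9934 CPM in sham libraries, with Ngp, Elane and Mpo at 0 in sham 2. Macrophage markers (8 genes) spanned 23.9 to 4491 CPM in injured libraries, 136 CPM in the uninjured and 17.1 to 2750.0 CPM in sham libraries, with Adgre1 and Cd68 among 4 at 0 in sham 2. Endothelial markers (6 genes) spanned 42.5 to 184 CPM in injured libraries, 484 CPM in the uninjured and 0.746 to 913 CPM in sham libraries, with 4 of 6 at 0 in sham 2. Smooth muscle and pericyte markers (5 genes) spanned 654 to 1328 CPM in injured libraries, 1261 CPM in the uninjured and 734 to 1439 CPM in sham libraries. Skeletal muscle markers (5 genes) spanned 26.1 to 71.3 CPM in injured libraries, 16.8 CPM in the uninjured and 10.7 to 41.8 CPM in sham libraries.

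Schwann cell markers (6 genes) moved with the members. They summed to 572, 307 and 270.2 CPM in injured 1, 2 and 3, to 926 CPM in the uninjured library, and to 5058 and 777 CPM in sham 1 and 2, so every injured library lay below every other, with Mag at 0 in the uninjured library. Of single markers, the peripheral myelin gene Pmp22 stood at 348, 276 and 224 CPM in the injured libraries, 786 CPM in the uninjured and 1689 and 549.6 CPM in the sham libraries. The myelin gene Mbp stood at 89.4, 11.8 and 14.4 CPM in the injured libraries, 108 CPM in the uninjured and 1629 and 111 CPM in the sham libraries. The smooth muscle myosin gene Myh11 stood at 7.54, 6.51 and 31.1 CPM in the injured libraries, 299 CPM in the uninjured and 199 and 40.7 CPM in the sham libraries. These 3 genes were wholly lower in the injured libraries, as the members were, and their part in the members' difference was not tested.

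In sham 1 and injured 1, the libraries richest in erythroid markers, Cilp2, Chad and Cytl1 were at the lowest level of their group. Without sham 1 and injured 1 together, a choice made after the data were seen, the log2 fold changes against sham control were -3.29 for Cilp, -3.96 for Cilp2, -5.04 for Chad and -5.44 for Cytl1. In the libraries left, injured 3 and sham 2 were both poor in erythroid, neutrophil and macrophage markers. Between these 2, Chad stood at 595 CPM in injured 3 and 16868 CPM in sham 2, and Cytl1 at 30.2 CPM in injured 3 and 1301 CPM in sham 2. Cilp stood at 176 CPM in injured 3 and 2427 CPM in sham 2, and Cilp2 at 55.7 and 885 CPM. The choice of members fixes the direction, and the part of blood cells in the difference was not tested.

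Tendon cell markers, 6 genes led by Fmod and Thbs4, summed to 2681, 3753 and 4776 CPM in injured 1, 2 and 3, to 4628 CPM in the uninjured library, and to 3157 and 6130.2 CPM in sham 1 and 2. The injured and sham values overlapped. Chondrocyte markers, 6 genes dominated by Col2a1, summed to 13699, 7083 and 46809 CPM in injured 1, 2 and 3, to 1509 CPM in the uninjured library, and to 1457 and 19642 CPM in the sham libraries. They overlapped too, and the sum was low in the uninjured library, where Chad was high. Its Col2a1, Acan, Col9a1 and Hapln1 lay below every injured library. Sox9, of the same list, stood at 588 CPM in the uninjured library, against 84.3, 140 and 423 CPM in injured 1, 2 and 3. In sham 1 and 2 it stood at 150 and 1095 CPM, so its injured and sham values overlapped.

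Chad was set beside collagen II, which it binds. Col2a1 stood at 12395, 6068 and 40956 CPM in injured 1, 2 and 3, at 495 CPM in the uninjured library, and at 1082 and 17122 CPM in sham 1 and 2. Chad counts over Col2a1 counts were 0.0180, 0.0707 and 0.0145 in injured 1, 2 and 3, 32.7 in the uninjured library, and 4.05 and 0.985 in sham 1 and 2. The ratio did not overlap between injured and other libraries, although Col2a1 itself did. Chad was chosen for low counts in the injured libraries, which favours such a separation, so it is a description with no test. Cartilage oligomeric matrix protein (Comp), a pentameric protein of tendon and cartilage, stood at 2495, 2872 and 5441 CPM in the injured libraries, 7067 CPM in the uninjured library and 4756 and 11127 CPM in the sham libraries.

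**Figure D3:**
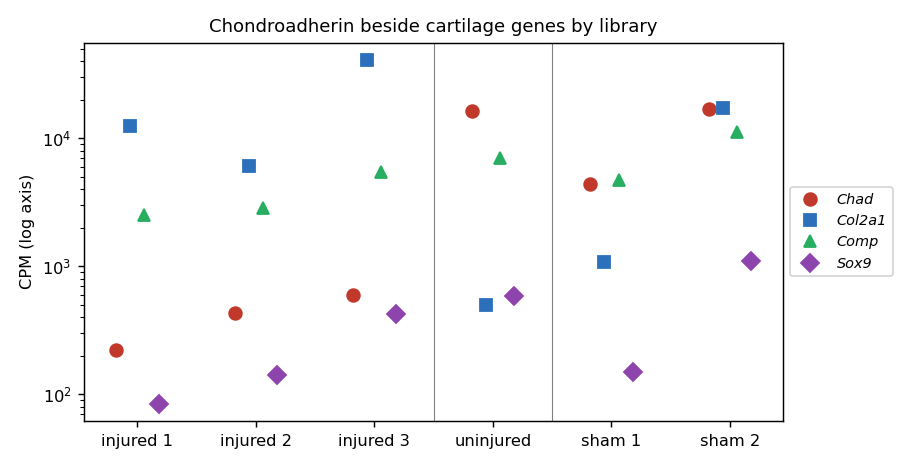
CPM of Chad, Col2a1, Comp and Sox9 in each library on a log axis, with injured libraries on the left, the uninjured library in the middle and sham controls on the right. Chad lies below Comp and Col2a1 in the 3 injured libraries, from 223 to 595 CPM.

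The neighbours of the members were read from 4 lists of 63 genes in all, with Col2a1 in 2 of them. No gene of the lists passed edgeR's quasi-likelihood test after adjustment in injured against sham control, nor did any of the 16752 genes tested (0%). At an unadjusted p under 0.05, 409 genes were higher (2.44%) and 369 lower (2.2%). Scaled by library size alone, 538 were higher and 287 lower, and the median over all genes tested was 0.23 in place of 0.09. DESeq2 called 282 genes higher (1.64%) and 144 lower (0.839%), limma-voom 1 and edgeR without a filter 3. Of the 63 listed genes, 6 were higher and 5 lower at unadjusted p under 0.05. Against all non-injured libraries edgeR again called no gene (0% of 14110), with 3.71% higher and 3.72% lower at an unadjusted p under 0.05 (524 and 525 genes, or 648 and 430 scaled by library size alone). DESeq2 called 224 higher (1.49%) and 257 lower (1.71%) there, and limma-voom 7 lower.

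Binding partners and receptors, 14 genes, had a median log2 fold change of 0.06, against 0.09 for all genes tested. Of these, 8 were above 0 and 6 below, 1 had an unadjusted p under 0.05, and 0 passed edgeR or DESeq2 after adjustment. Without sham 1 and injured 1, 4 were above 0 and 10 below, and without sham 2, 11 above and 3 below. Tgfb1, the growth factor that human CILP binds, stood at 58.2, 35.2 and 63.4 CPM in injured 1, 2 and 3, 116 CPM in the uninjured library, and 99.2 and 120.5 CPM in sham 1 and 2. It was lower in every injured library than in any other, and the log2 fold change was -1.07 ± 0.40 (SE; adjusted p by edgeR = 0.865). The integrin subunit Itgb1, part of the receptor of Chad, stood at 564 ± 256 CPM in injured cells and 328 ± 93.0 CPM in sham controls (SD; n = 3 and 2). The alpha2 subunit of that receptor, Itga2, was far lower, at 1.34 ± 1.88 CPM in injured cells and 3.42 ± 1.28 CPM in sham controls (SD). Its injured and sham values overlapped. The heparan sulphate proteoglycans Sdc3 and Sdc4 had log2 fold changes of 0.95 ± 0.73 and -0.92 ± 0.68 (SE), and the injured and sham values of Itgb1, Sdc3 and Sdc4 overlapped. Igf1, the growth factor that human CILP opposes, stood at 360.3 ± 129 CPM in injured cells and 406 ± 442 CPM in sham controls (SD; n = 3 and 2). Igf1 and Itga2 were named after their values were seen.

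Tendon and fibrocartilage matrix genes, 18 in number, had a median log2 fold change of -0.26, with 7 above 0 and 11 below. At an unadjusted p under 0.05, 1 was higher and 2 lower. None passed edgeR's adjustment, and DESeq2 called Clu. Without sham 1 and injured 1, 3 were above 0 and 15 below, whereas without sham 2, 10 were above 0 and 8 below with a median of 0.35. Clusterin (Clu), a secreted chaperone, stood at 62.2, 228 and 131 CPM in injured 1, 2 and 3, at 7849 CPM in the uninjured library, and at 2847 and 6159 CPM in the sham libraries. Its groups did not overlap, and its log2 fold change was -5.00 ± 0.77 (SE, edgeR adjusted p = 0.525), in the range of the 4 members. The leucine-rich repeat proteoglycan Prelp stood at 491, 540.2 and 828 CPM in injured libraries and 1084 and 2617 CPM in sham libraries, and decorin (Dcn) at 4842 ± 1408 CPM in injured cells and 14953 ± 8800 CPM in sham controls (SD; n = 3 and 2). Tenascin C (Tnc), a glycoprotein of healing tendon, stood at 940.5, 478 and 925 CPM in the injured libraries, and at 134 and 393 CPM in the sham libraries. Its log2 fold change was 1.57 ± 0.62 (SE; adjusted p by edgeR = 0.865).

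**Figure D4:**
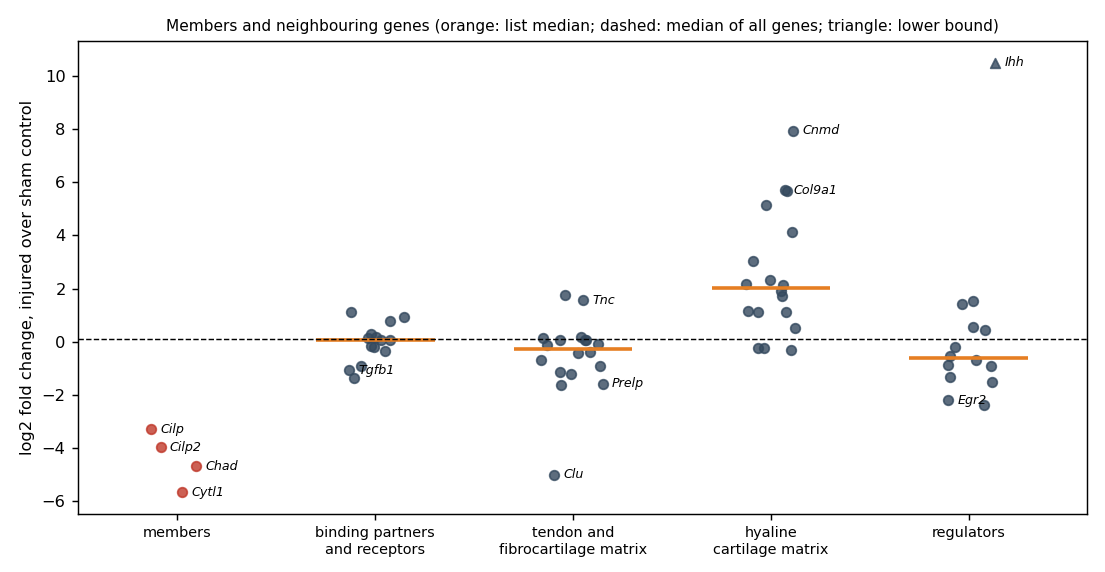
edgeR log2 fold changes of injured over sham control for the 4 members (red) and the genes of 4 neighbour lists (dark blue-grey, Ihh as a triangle at its lower bound), with list medians in orange and the median of all genes, 0.09, dashed. The members lie from -3.30 to -5.66, Clu at -5.00, and the hyaline cartilage list has its median at 2.03.

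Hyaline cartilage matrix genes, the usual companions of Chad and Cytl1 in chondrocytes, lay on the other side of 0. Of 18 genes 15 were above 0 and 3 below, with a median log2 fold change of 2.03. At an unadjusted p under 0.05, 4 were higher and 0 lower, 0 passed edgeR's adjustment, and DESeq2 called Cnmd, Col9a1 and Col9a3. For 6 of the 18 every injured library was above both sham libraries, as for 11.9% of genes tested. The median rested partly on injured 3: without it, it was 0.45 with 13 above 0, and without sham 2 it was 3.83. Without sham 1 and injured 1 it was 1.58 with 15 above 0, and without sham 1 alone 1.19. The list also differed between non-injured libraries. In uninjured against sham control 2 of the 18 were above 0 and 16 below. The median there was -1.41, against -0.09 for all genes tested, and -0.38 without sham 2.

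Chondromodulin (Cnmd), an antiangiogenic cartilage protein, stood at 311, 119 and 833 CPM in injured 1, 2 and 3, at 4.09 CPM in the uninjured library, and at 1.41 and 2.04 CPM in sham 1 and 2 (edgeR adjusted p = 0.525). The 3 collagen IX chains, which coat collagen II fibrils, followed. Col9a3 stood at 753, 307 and 2596 CPM in the injured libraries, had no count in the uninjured library, and stood at 17.1 and 123 CPM in the sham libraries. Log2 fold changes were 5.69 ± 1.31 for Col9a1, 3.05 ± 1.08 for Col9a2 and 4.12 ± 1.28 for Col9a3 (SE; edgeR adjusted p = 0.865 each). Thus in the same injured libraries Cnmd and collagen IX were above, and Chad and Cytl1 below, both sham libraries. For Chad and Cytl1 the choice of members fixes this.

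Regulators of fibrocartilage and tendon, 14 genes, had a median log2 fold change of -0.61, with 5 above 0 and 9 below, and the median was the same with Ihh at its bound. At an unadjusted p under 0.05, 1 was higher and 2 lower. None passed edgeR's adjustment, and DESeq2 called Ihh and Egr2. Without sham 2 the median was 0.31, with 10 above 0, and without sham 1 it was -1.15. Without sham 1 and injured 1 it was -0.97, with 6 above 0. Indian hedgehog (Ihh), the ligand of prehypertrophic chondrocytes, stood at 85.8, 23.1 and 67.9 CPM in injured libraries and had no count in the sham or uninjured libraries. It was at least 1439-fold higher in injured cells than 3 counts over both sham libraries, which covers counting error only. Egr2, a growth-response factor, stood at 19.2, 29.9 and 56.3 CPM in the injured libraries, and at 111 and 211 CPM in the sham libraries. Its log2 fold change was -2.20 ± 0.56 (SE; adjusted p by edgeR = 0.865). Smad3, which carries the TGF-beta signal to the nucleus, stood at 47.4 ± 5.31 CPM in injured cells and 89.2 ± 6.19 CPM in sham controls (SD; n = 3 and 2). Egr1, a tendon growth-response factor, stood at 812 ± 271 CPM in injured cells and 2051 ± 1366 CPM in sham controls (SD; n = 3 and 2), and its values overlapped.

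The members resembled each other to different degrees. Likeness was measured as the root mean square difference between centred log2(CPM + 1) profiles over the 6 libraries, where 0 is the same shape and size of change. Cilp2 and Chad were nearest, at 0.45 log2 units, Cilp and Cilp2 stood at 0.62, and Cytl1 was farthest, at 1.65 from Chad and 2.26 from Cilp. The Cytl1 distances include its library at 0.

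Among genes that are not members, the acidic fibroblast growth factor Fgf1 (0.37) and Clu (0.38) were nearest to the mean of the 4. Fgf1 stood at 0.0905, 6.13 and 4.00 CPM in injured 1, 2 and 3, 76.3 CPM in the uninjured library, and 56.3 and 82.1 CPM in sham 1 and 2. The terminal complement component C7 (0.67) and the secreted Wnt inhibitor Wif1 (0.82) came next. C7 stood at 3.89, 6.85 and 6.51 CPM in injured libraries, 683 CPM in the uninjured library, and 179 and 262 CPM in sham libraries. Wif1 stood at 16.9, 142 and 59.2 CPM in injured libraries, 1109 CPM in the uninjured library, and 226 and 1155 CPM in sham libraries. These genes were chosen for their profile, so the likeness has no test.

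**Figure D5:**
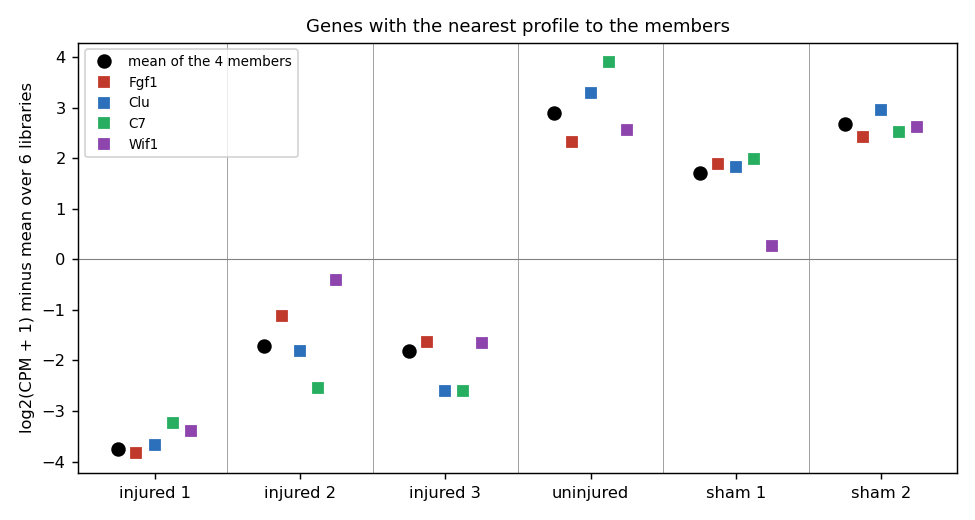
Centred log2(CPM + 1) of the mean of the 4 members (black) and of its 4 nearest genes, by library. For all 5 the 3 injured libraries lie below 0 and the uninjured and sham libraries above it.

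Each member had a somewhat different set of nearest genes. Among those of Cilp were the lipocalin Apod (0.37 log2 units), the junctional adhesion molecule Jam2 (0.39), Fam124a (0.46) and Tesc (0.47). Apod stood at 65.7, 66.3 and 61.7 CPM in injured 1, 2 and 3, 948 CPM in the uninjured library, and 753 and 473 CPM in sham 1 and 2. For Cilp2 they were Fgf1 (0.41), Clu and the lipid transporter Abca6 (both 0.59), Arhgap20 (0.60) and Tesc (0.64). Among those of Chad were Clu (0.54), C7 (0.67), Fgf1 (0.72) and Abca6 (0.78). For Cytl1 the nearest, Clu (1.39), Fgf1 (1.47), C7 (1.60), the plakin Ppl (1.70) and the leptin receptor Lepr (1.76), were farther than any of those.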

How the data were processed

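RNA was measured in 6 libraries. The deposited file holds whole-number counts per gene symbol. They were taken as unscaled counts, and whether the authors scaled them before rounding was not tested. Salmon 0.12.0, DESeq2 1.22.2 and DESeq are named, with the builds GRCm38.p6 and mm9, per the submitters' processing notes, without a role. The labels do not say how transcripts were summed to genes or whether strand was used.

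Counts were filtered with edgeR 4.0.16 (filterByExpr, minimum count 10), scaled with TMM (trimmed mean of M-values) and tested by the quasi-likelihood F test under R 4.3.3, with Benjamini-Hochberg adjustment over all genes and a threshold of 0.05. The comparisons with sham control used all 6 libraries in 3 groups (3 residual degrees of freedom), and that with all non-injured libraries 3 against 3 (4 degrees). Standard errors derive from the F statistic. CPM are counts relative to the TMM-scaled library size. All 4 members passed the filter. The steps were tested on simulated counts with the same set spread for every gene. What they can detect at the spread of these libraries was not tested.

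The members, lists and motifs were chosen with earlier results of these data known. Genes named are the members, 4 genes a list (smallest p, injured against sham control), the 5 nearest profiles, and cell type markers. Others were named after their values were seen, and some genes that the rule names are not reported here. Alternatives were other scalings, no filter, DESeq2 1.42.0, limma-voom (limma 3.58.1), removal of ribosomal RNA and haemoglobin genes, each library left out, and a replicate block. Counts carry no molecular identifiers, so floors cover counting error only.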

Additional observations from a re-analysis of the deposited data

How the results depend on the processing

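The members were chosen for lower counts in the injured libraries, which do not overlap with the others, so the sign of their difference is fixed by that choice and says nothing of stability. Its size varied over 14 alternatives against sham control and 13 against all non-injured libraries. Against sham control, leaving out 1 library gave -3.62 to -3.16 for Cilp, -4.32 to -3.51 for Cilp2, -5.34 to -3.40 for Chad and -6.09 to -5.08 for Cytl1. Cytl1 moved to -8.44 with limma-voom, and to -8.60 against all non-injured libraries. The cause was not tested. In uninjured against sham control, leaving out 1 library gave -0.061 to 1.88 for Chad, which was below 0 without sham 1 (-0.061) and without sham 1 and injured 1 (-0.062). No member passed there under any of 12 alternatives.

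Counts of called genes depended on the method. Against sham control edgeR called 0, or 3 without a filter, limma-voom 1 and DESeq2 426. Against all non-injured libraries these were 0, 5, 7 and 481. In uninjured against sham control DESeq2 called 708, and edgeR 2 without sham 1 and injured 1. Of the listed genes, 1 (Ihh) was called without a filter and 6 by DESeq2 against sham control, and 2 (Cnmd and Ihh), 1 (Clu, limma-voom) and 10 (DESeq2) against all non-injured libraries. Why the methods differ was not tested. Leaving out any 1 library left each of these edgeR counts at 0.

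Sham control and injured share the replicate numbers 1 and 2. Deviations from the group means correlated at 0.35 for number 1 and 0.01 for number 2, across genes. The unmatched sham 2 and injured 3 correlated at 0.43. Deviations of the sham libraries mirror each other, so these values are not independent and cannot decide on pairing. The numbers were not taken as pairs. With the replicate block on these 4 libraries, edgeR called 0 genes, and Cytl1 had a log2 fold change of -9.17 ± 3.39 (SE). Injured 1, at 0, is then 1 of 2 injured libraries.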

Other observations

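Chondroadherin-like (Chadl), a leucine-rich repeat relative of Chad that is known to limit collagen assembly, did not share its pattern. It stood at 18.8, 4.56 and 62.4 CPM in injured 1, 2 and 3, at 10.1 CPM in the uninjured library, and at 37.4 and 13.0 CPM in sham 1 and 2, and the groups overlapped (log2 fold change 0.18 ± 1.06, SE; edgeR adjusted p = 1.000). Tenomodulin (Tnmd) and thrombospondin 4 (Thbs4), proteins of mature tendon, also overlapped, at 172 ± 65.6 and 1725 ± 440 CPM in injured cells and 165 ± 165 and 1627 ± 412 CPM in sham controls (SD; n = 3 and 2). Gli1, a Hedgehog target that marks progenitors of the mouse enthesis, stood at 0, 0.0330 and 4.88 CPM in injured 1, 2 and 3, at 32.6 CPM in the uninjured library, and at 9.79 and 7.43 CPM in sham 1 and 2 (edgeR adjusted p = 0.892). Its injured libraries lay below the others, as did the members, while Ihh had counts in the injured libraries alone. These 4 genes were named after their values were seen.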
